A study of Rattus norvegicus with 6 samples.

Results

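The tubulin isoforms described here are 10 rat genes, 5 for α-tubulin (Tuba1a, Tuba1b, Tuba1c, Tuba4a and Tuba8) and 5 for β-tubulin (Tubb2a, Tubb2b, Tubb3, Tubb5 and Tubb6). They were found as the probe sets whose gene symbol in the platform annotation is one of these names, which gave 11 of the 31042 probe sets tested. Of the 10 genes, 7 had a probe set of their own, and Tubb3, Tubb5 and Tubb6 had 2 each. The other 3, Tuba1a, Tuba1b and Tuba1c, were read together by 1 probe set that the annotation assigns to all of them, so its signal cannot be divided among them.

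Microtubules are hollow polymers of α- and β-tubulin dimers. In heart muscle cells they carry cargo and add stiffness to the contracting cell, and a denser microtubule network is known from pressure-overloaded and hypertrophied hearts. The isoforms are encoded by separate genes whose proteins differ mainly in the C-terminal tail, the part that carries most modifications and binds many partner proteins. Cells also tune tubulin synthesis to the pool of free dimers by degrading tubulin mRNA when that pool is large.

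The cells were heart muscle cells of Wistar rats aged 1 to 2 days, freed from fibroblasts on a Percoll gradient per the labels' protocols, and each of 3 groups had 2 arrays. Control cells received no treatment. The phenylephrine group received phenylephrine, an agonist of the α1-adrenergic receptor, at 50 µmol/l. The protocol text of that group also lists endothelin-1 and angiotensin II, while the titles and the series' design name phenylephrine alone. The stretch group was stretched biaxially to 112% for 24 h on a collagen-coated silicone membrane, which began 36 h after seeding plus 24 h without serum. The sources used here do not give the surface, plating time and serum-free period of the other groups, nor how long phenylephrine was applied, so effects of these and of the stimulus cannot be told apart. RNA of several cell preparations was pooled, and whether both arrays of a group stand for separate cultures is not labelled. The p-values thus describe the spread between these arrays alone, and that spread may be technical.

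Signals are given on the deposited log2 scale. A change is one group mean minus another, ± the SE that limma estimated, from n = 2 arrays in each group. A change passed where its limma p, adjusted by Benjamini-Hochberg over all 31042 probe sets, was below 0.05. Array medians lay between 8.30 and 8.33 log2. Phenylephrine replicate 2 had the lowest spike-in hybridization controls, with a median of 9.31 log2 against 10.13 to 10.37 on the other arrays. Its interquartile range, 1.70 log2, was also the smallest, against 1.80 to 1.92 elsewhere. Signals of different probe sets are not comparable as amounts, so levels are compared within a probe set only.

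Tubb6 and Tuba4a are the 2 members with probe sets of their own that rose with phenylephrine, and the 250 bases before their annotated starts are shown to let the promoters of genes that moved together be compared. The sequences are from RefSeq, assembly GRCr8, written 5′ to 3′ on the gene's strand. The Tubb6 window is chr18:63213037-63213286 on the plus strand, directly before the annotated gene. The Tuba4a window is chr9:84162585-84162834 on the minus strand, within the span of longer annotated transcripts of the gene. Capitals mark matches, on either strand, to the CCAAT box, to the GC box (letters GGGCGG) and to the core of the TATA box (letters TATAA).
Tubb6: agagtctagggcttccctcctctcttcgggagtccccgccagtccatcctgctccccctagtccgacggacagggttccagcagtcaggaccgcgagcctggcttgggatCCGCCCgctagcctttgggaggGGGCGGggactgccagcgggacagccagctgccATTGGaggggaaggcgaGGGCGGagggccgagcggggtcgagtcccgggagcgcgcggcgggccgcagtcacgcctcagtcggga
Tuba4a: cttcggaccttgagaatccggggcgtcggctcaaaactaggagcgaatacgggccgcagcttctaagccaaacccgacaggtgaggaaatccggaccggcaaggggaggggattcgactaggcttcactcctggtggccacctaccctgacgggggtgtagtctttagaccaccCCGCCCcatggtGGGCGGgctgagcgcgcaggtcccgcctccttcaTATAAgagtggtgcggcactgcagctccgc

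The Tubb6 window held 3 GC boxes and 1 CCAAT match, 85 bases before the start, and no TATAA. The Tuba4a window held 2 GC boxes and 1 TATAA, 30 bases before the start, and no CCAAT. The letters TGANTCA (N is any base, so the AP-1 site is included) and TGACGTCA (the cyclic AMP response element) were searched on both strands. So were GGAATG (the core of the TEAD site) and the CArG box of SRF. None had a match in either of these windows. Windows were found for all 10 members. GC boxes were in 8 of 10 against 32.4% of 27457 rat promoter windows of this length, CCAAT in 7 of 10 against 34.3%, and TATAA in 5 of 10 against 24.1%. TGACGTCA had 1 match among the members, 61 bases before the start of Tubb2a, against 1.7% of all windows. TGANTCA, the TEAD core and the CArG box were in 0 of 10 member windows, against 6.36%, 11.8% and 1.5% of all windows. A match describes letters in this window and says nothing of binding.

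Phenylephrine against control asked how the tubulin genes stand in cells under the chemical growth stimulus. Tubb6 and Tuba4a rose, as did the probe set shared by Tuba1a, Tuba1b and Tuba1c, and 0 members passed downward. In all, 3 of 11 tubulin probe sets passed upward and 0 passed downward in limma, beside 1.73% of all probe sets that passed upward and 1.87% downward. At an unadjusted p under 0.05 there were 5 higher and 1 lower, beside 6.98% and 9.58% of all probe sets (16.6% in either direction). Both phenylephrine arrays lay above both controls in 6 tubulin probe sets and below them in 2, beside 21.5% and 22.1% of all. With 1 probe set per gene, the brightest, the median change of the 8 was 0.46 log2. Over all 11 tubulin probe sets it was 0.11, against 0.0060 over all probe sets tested.

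Tubb6, a β-tubulin of broad expression outside neurons, had the largest change among the members. On the probe set 1376100_at its signal was 10.19 and 10.20 log2 on the control arrays, 11.57 and 11.36 with phenylephrine, and 11.12 and 11.01 with stretch. Both phenylephrine arrays thus lay above both stretch arrays, which lay above both controls. With phenylephrine it rose 2.41-fold (1.27 ± 0.12 log2, SE; limma adjusted p = 0.00322). This call held with each of the 6 arrays left out in turn, with changes of 1.157 to 1.376.

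The other Tubb6 probe set, 1394144_at, was dim, between 7.42 and 7.59 log2, below the lower quartile of each array (7.64 to 7.67). Control replicate 1 was the lowest on it, and the other 5 arrays lay between 7.52 and 7.59. Its change with phenylephrine was 0.11 ± 0.06 log2 (95% interval -0.02 to 0.25), so the 2 probe sets of the gene disagreed in size. With the mean of both probe sets in place of the brighter one, the change of Tubb6 was 0.689 with phenylephrine (limma adjusted p = 0.0078) and 0.483 with stretch (limma adjusted p = 0.109).

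Tuba4a encodes an α-tubulin whose gene does not code for the final tyrosine that most α-tubulin genes encode. Its signal was 12.04 and 12.02 log2 on the control arrays, 12.79 and 12.71 with phenylephrine, and 12.31 and 12.35 with stretch. The 3 groups did not overlap and stood in the same order as for Tubb6. With phenylephrine it rose 1.65-fold (0.72 ± 0.10; limma adjusted p = 0.0118). Without control replicate 1 or 2 the change was 0.732 or 0.713 and no longer passed (limma adjusted p = 0.091 and 0.109).

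The probe set 1367579_a_at, shared by Tuba1a, Tuba1b and Tuba1c, reads the main α-tubulin genes of many cell types, whose transcripts are very alike. Its signal was 13.55 log2 on both control arrays, 14.03 and 14.31 with phenylephrine, and 13.59 and 13.78 with stretch. It rose 1.54-fold with phenylephrine (0.62 ± 0.12; limma adjusted p = 0.0331), and both phenylephrine arrays lay above the other 4. The call was lost without control replicate 1 (0.622; limma adjusted p = 0.13), control replicate 2 (0.619; 0.151) or phenylephrine replicate 2 (0.484; 0.128).

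**Figure D1:**
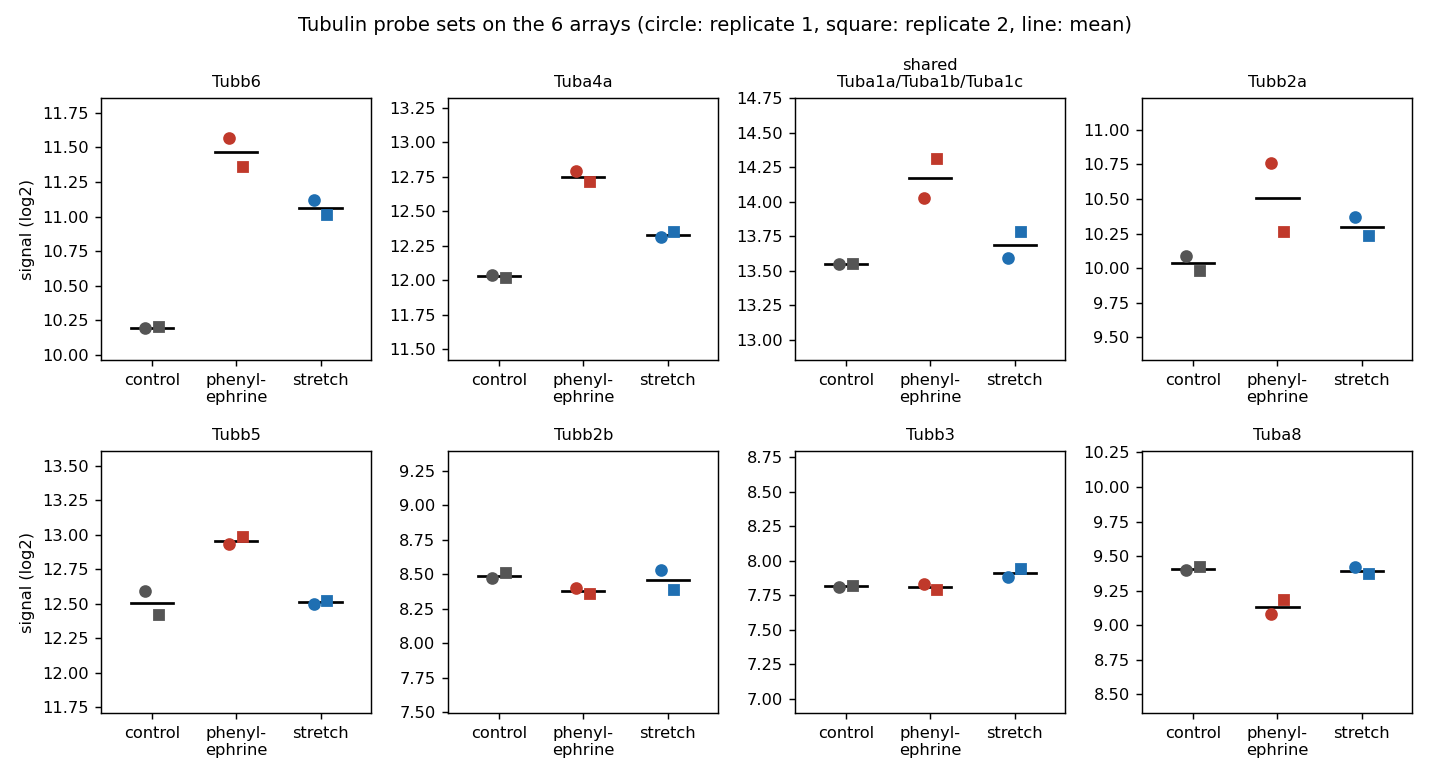
Log2 signal (y axis; every panel spans the same range of 1.9 log2) of the brightest probe set of each tubulin gene, or of the set shared by Tuba1a, Tuba1b and Tuba1c, in control, phenylephrine and stretch cells, with replicate 1 as circles, replicate 2 as squares and the mean of 2 arrays as a line. Tubb6 and Tuba4a step from control through stretch to phenylephrine with no overlap, while Tubb2b and Tubb3 stay within narrow ranges.

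Tubb5, the widely expressed β-tubulin, had 2 probe sets that differed. On the brighter one, 1387892_at, the signal was 12.59 and 12.42 log2 on the control arrays, 12.93 and 12.98 with phenylephrine, and 12.50 and 12.52 with stretch. Only the phenylephrine arrays stood above the controls there, and the change of 0.45 ± 0.11 did not pass (limma adjusted p = 0.074). It passed with quantile normalization, 0.372 (limma adjusted p = 0.0221), without a mean-variance trend (0.0324), and among the brighter probe sets only (0.0486). With a term for the replicate number it also passed. With the mean of both Tubb5 probe sets it was 0.232 (limma adjusted p = 0.338), and with 1 array left out the brighter one ran from 0.362 to 0.533 and did not pass. The other probe set, 1370290_at, ranged from 10.18 to 10.36 over all 6 arrays, and its change with phenylephrine was 0.02 ± 0.10 (95% interval -0.22 to 0.26).

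Tubb2a, a β-tubulin most abundant in the nervous system, had 10.09 and 9.98 log2 on the control arrays, 10.76 and 10.26 with phenylephrine, and 10.37 and 10.23 with stretch. Both phenylephrine arrays lay above the controls but far from each other, and their SD of 0.35 log2 was the largest of any member. Its value with phenylephrine was 0.47 ± 0.17 log2 (limma adjusted p = 0.204). Without phenylephrine replicate 1 it was 0.226 (limma adjusted p = 0.31), and without phenylephrine replicate 2 it was 0.72 and passed (limma adjusted p = 0.0385). It also passed with quantile normalization, at 0.506 (limma adjusted p = 0.0183), and with a term for the replicate number (limma adjusted p = 0.00405). The near relative Tubb2b was between 8.36 and 8.53 log2 on all arrays, with its phenylephrine arrays just below the controls (-0.11 ± 0.07; 95% interval -0.28 to 0.06).

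Tubb3, the β-tubulin used as a neuron marker, was near the lower quartile of the arrays on both probe sets, between 7.24 and 7.94 log2. Its changes with phenylephrine were 0.09 ± 0.08 on 1369901_at and less than 0.01 in size on 1371618_s_at (95% interval -0.13 to 0.13). Tuba8, an α-tubulin of muscle, testis and brain, had the most negative change among the members with phenylephrine. Its signal was 9.40 and 9.42 log2 on the control arrays, 9.08 and 9.18 with phenylephrine, and 9.42 and 9.37 with stretch. The phenylephrine arrays lay below the other 4, and the change of -0.28 ± 0.09 did not pass (limma adjusted p = 0.15). It passed with a term for the replicate number (limma adjusted p = 0.0127).

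Stretch against control asked the same of the mechanical stimulus. Tubb6 was the one tubulin probe set of 11 that passed, upward, beside 0.306% of all probe sets, and 0 fell, beside 0.0387%. At an unadjusted p under 0.05 there were 2, Tubb6 and Tuba4a, beside 3.6% of all probe sets (5.54% in either direction). The median change was 0.12 log2 over the 8 brightest probe sets and 0.10 over all 11, against 0.0056 over all probe sets tested. Tubb6 rose 1.82-fold on 1376100_at (0.87 ± 0.12; limma adjusted p = 0.0398), with 0.10 ± 0.06 on its dim probe set. That call was lost without control replicate 1 (0.86; limma adjusted p = 0.384), control replicate 2 (0.873; 0.385), stretch replicate 1 (0.813; 0.461) or stretch replicate 2 (0.92; 0.26).

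Tuba4a had 0.30 ± 0.10 with stretch (95% interval 0.06 to 0.54; limma adjusted p = 0.658), Tubb2a 0.26 ± 0.17 and the shared Tuba1 probe set 0.14 ± 0.12 (95% interval -0.14 to 0.41). The last was 0.229 without stretch replicate 1 and 0.041 without stretch replicate 2. In these 3 probe sets both stretch arrays lay above both controls, as they did in 6 of 11 tubulin probe sets, beside 19.4% of all probe sets. They lay below in 1 of 11, the dimmer Tubb5 probe set (-0.09 ± 0.10), beside 16.5%. The brighter Tubb5 probe set had a change below 0.01 log2 in size (95% interval -0.25 to 0.26). Tuba8, Tubb2b and both Tubb3 probe sets had values from -0.03 to 0.10. The intervals of these 5 probe sets ran between -0.25 and 0.26.

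**Figure D2:**
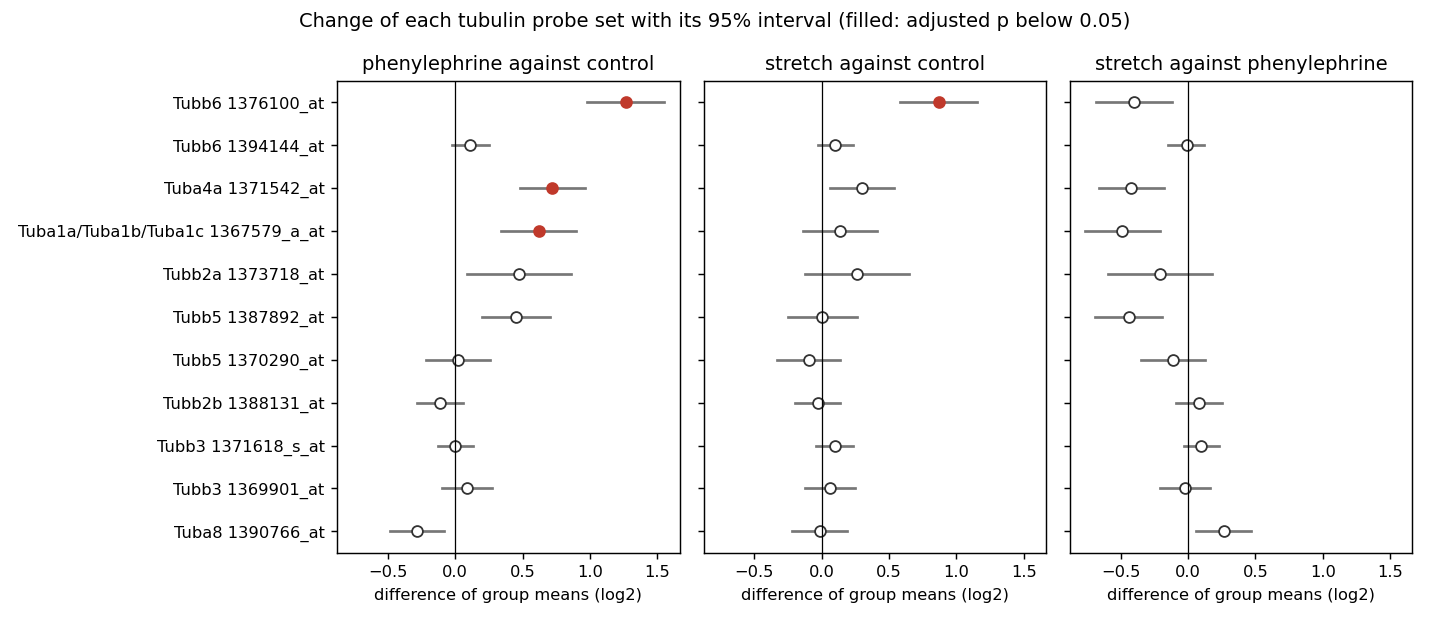
Difference of group means (x axis, log2) of each of the 11 tubulin probe sets (y axis) in 3 comparisons, with the 95% interval of the limma fit as a bar and a filled point where the adjusted p was below 0.05. With phenylephrine Tubb6, Tuba4a and the shared Tuba1 probe set are filled, with stretch Tubb6 alone, and no point is filled for stretch against phenylephrine.

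Stretch against phenylephrine set the 2 stimuli side by side. In limma 0 of 11 tubulin probe sets passed, beside 1.33% of all probe sets, and at an unadjusted p under 0.05 there were 4 lower and 1 higher with stretch, beside 4.63% and 7.84% (12.5% in either direction). Both stretch arrays lay below both phenylephrine arrays in 6 and above them in 2, beside 17.2% and 21.6% of all probe sets. The 4 lower with stretch were the shared Tuba1 probe set (-0.49 ± 0.12), Tubb5 on 1387892_at (-0.44 ± 0.11), Tuba4a (-0.42 ± 0.10) and Tubb6 on 1376100_at (-0.40 ± 0.12). Their limma adjusted p-values were 0.121, 0.121, 0.122 and 0.215. The higher one was Tuba8 (0.27 ± 0.09; limma adjusted p = 0.251). With quantile normalization these 4 lower values passed, from -0.402 to -0.463, with limma adjusted p-values from 0.0125 to 0.0348. The 2 comparisons with control share the control arrays, so their changes are not independent of each other.

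Tubb4b, a β-tubulin of most tissues that is not among the 10, belongs to a list of other tubulin genes. Of that list, 5 of 11 genes had a probe set of their own. Tubb4b had 12.16 and 12.15 log2 on the control arrays, 13.23 and 13.34 with phenylephrine, and 12.67 and 12.75 with stretch. The groups did not overlap and stood in the order of Tubb6 and Tuba4a. With phenylephrine Tubb4b rose 2.19-fold (1.13 ± 0.10; limma adjusted p = 0.00263). With stretch it had 0.55 ± 0.10 (limma adjusted p = 0.118), and it was lower with stretch than with phenylephrine (-0.58 ± 0.10; limma adjusted p = 0.0449). The latter call was lost with any 1 of the 6 arrays left out, at -0.526 to -0.633 with limma adjusted p-values of 0.0601 to 0.318. The other 4, Tubb1, Tubb4a, the γ-tubulin gene Tubg1 and the ε-tubulin gene Tube1, had changes from -0.02 to 0.22 with phenylephrine.

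Genes that act on tubulin were taken as 5 further lists, and 2 members of them passed in any of the 3 comparisons. Stmn1, which encodes stathmin, a protein that binds free tubulin dimers and promotes microtubule shrinkage, had 11.65 and 11.44 log2 on the control arrays, 10.66 and 10.41 with phenylephrine, and 11.62 and 11.50 with stretch. It fell with phenylephrine (-1.01 ± 0.14, 2.01-fold lower; limma adjusted p = 0.0101) and was higher with stretch than with phenylephrine (1.03 ± 0.14; limma adjusted p = 0.0179). It was 1 of 12 measured destabilizers and severing enzymes to pass in each of these. Of all probe sets, 1.87% passed downward with phenylephrine and 0.718% passed upward for stretch against phenylephrine. The first call was lost without control replicate 1 (-0.904) or 2 (-1.113), and the second without phenylephrine replicate 2 (0.9), stretch replicate 1 (0.964) or stretch replicate 2 (1.089). Kif5b encodes the heavy chain of the cargo motor kinesin-1. It was 1 of 33 cargo motor genes to pass with phenylephrine, upward, beside 1.73% of all probe sets. It had 12.29 and 12.09 on the control arrays, 13.51 and 13.10 with phenylephrine, and 12.80 and 12.54 with stretch. The rise was 2.17-fold (1.12 ± 0.16; limma adjusted p = 0.0126), and it was lost without control replicate 2 (1.018; limma adjusted p = 0.0868).

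The remaining microtubule genes had no member past the threshold. Of all probe sets, 16.6%, 5.54% and 12.5% had an unadjusted p under 0.05 for phenylephrine, stretch and stretch against phenylephrine. Among 22 genes of folding and assembly (the chaperonin CCT, prefoldin and tubulin cofactors) 0 passed in limma with phenylephrine (3 at an unadjusted p under 0.05) or with stretch (1). The list had 18 members above 0 with phenylephrine and 21 with stretch, where 52.3% and 52.8% of all probe sets were above 0, and medians of 0.14 and 0.18 log2. The prefoldin gene Pfdn4 had the largest value with phenylephrine, 0.55 ± 0.13 (limma adjusted p = 0.0685). Among 16 enzymes that modify tubulin 0 passed in limma in any of the 3 comparisons (2, 1 and 1 at an unadjusted p under 0.05 for phenylephrine, stretch and stretch against phenylephrine), with Sirt2, a tubulin deacetylase, at -0.45 ± 0.13 with phenylephrine. Among 32 stabilizers and plus-end proteins 0 passed in limma in any comparison (8, 3 and 3 at an unadjusted p under 0.05), with Mapre3 at -0.60 ± 0.22 with phenylephrine and Mtus1 at -0.49 ± 0.13 with stretch.

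**Figure D3:**
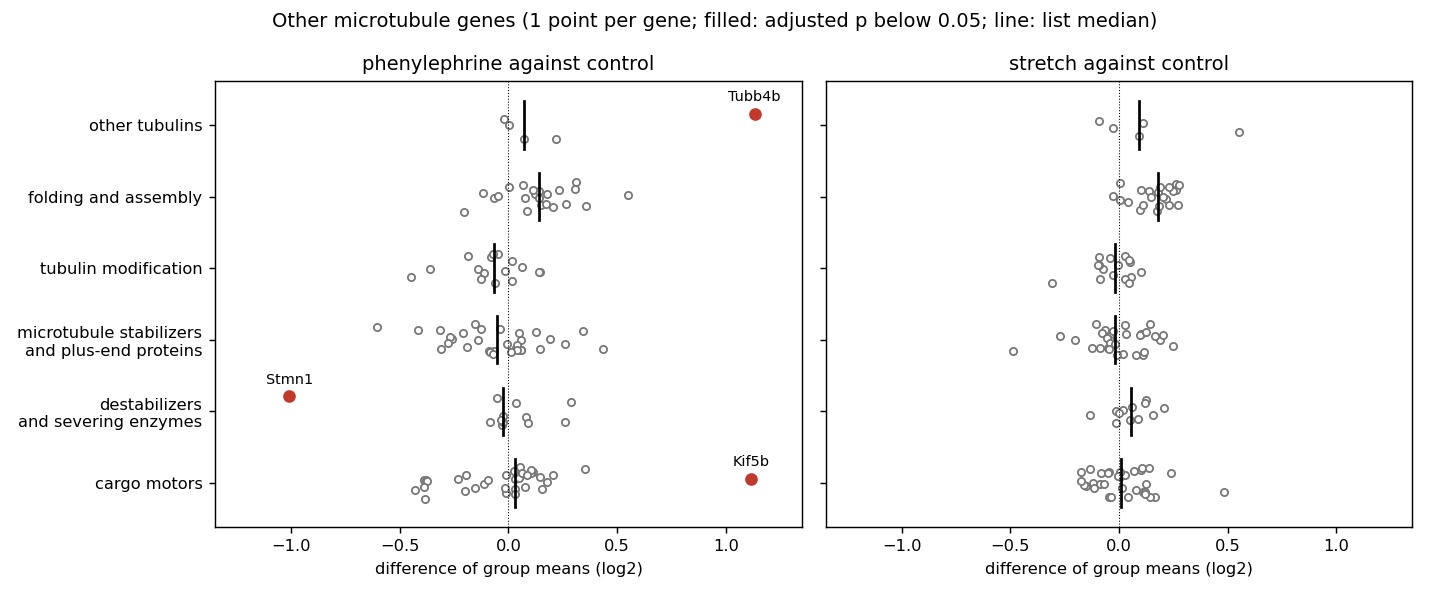
Difference of group means from control (x axis, log2) for each gene of the 6 lists of other tubulins and microtubule genes (y axis), with phenylephrine at left and stretch at right, a filled named point where the limma adjusted p was below 0.05 and a line at the list median. With phenylephrine Tubb4b and Kif5b stand near 1.1 and Stmn1 near -1.0, and with stretch no point is filled.

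Target genes of SRF and YAP, which respond to actin dynamics and cell shape, were listed beside the tubulins. Of 22 measured, 5 rose with phenylephrine and 3 with stretch, beside 1.73% and 0.306% of all probe sets, and 0 fell. Their medians were 0.17 and 0.11 log2. The calponin gene Cnn1 had the largest value in both, 2.55 ± 0.13 with phenylephrine (limma adjusted p = 0.000968) and 1.45 ± 0.13 with stretch (limma adjusted p = 0.00502). The skeletal actin gene Acta1 (1.09 ± 0.11), the smooth muscle actin gene Acta2 (0.96 ± 0.12) and the tropomyosin gene Tpm4 (0.61 ± 0.13) were also among the rises with phenylephrine. The matricellular genes Ccn1 (1.32 ± 0.16) and Ccn2 (0.81 ± 0.11) were the other rises with stretch. Ccn2, named here after its values were seen, also rose with phenylephrine (0.593, limma adjusted p = 0.0304). That call was not checked with arrays left out. Of these calls, that of Cnn1 with stretch was lost without control replicate 2 (1.395) or stretch replicate 1 (1.389). That of Acta2 was lost without control replicate 1 (0.982) or 2 (0.945). That of Ccn1 was lost without any control or stretch array (1.196 to 1.436). Those of Ccn2 with stretch (0.69 to 0.922) and Tpm4 (0.508 to 0.714) were lost without any 1 of the 6 arrays.

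The genes whose pattern over the 6 arrays was most like that of Tubb6 were sought among 969 named genes whose group means spanned at least 0.5 log2. The 5 with the highest Pearson correlation, 0.992 to 0.999 over 6 arrays in 3 groups, were Phf24, a PHD finger gene, Mthfd2, a mitochondrial folate enzyme, Psph, the last enzyme of serine synthesis, Pcsk6, a proprotein convertase, and Hbegf, a ligand of the EGF receptor. Their changes were 0.79 to 1.70 log2 with phenylephrine and 0.48 to 1.20 with stretch. All were compared on the same 6 arrays, and the correlation is a description of these arrays.

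Markers of the labelled cells and of others were read on the same arrays, where no detection calls were used. The myocyte genes Myh6 and Myl2 had 14.56 and 14.70 log2 on average in control cells, and none of 10 myocyte markers passed in limma in any comparison (1 at an unadjusted p under 0.05 with phenylephrine, 0 with stretch and 0 between the stimuli). The fibroblast collagen gene Col3a1 stood at 13.24 in control cells, so fibroblast transcripts were present after the gradient. Of 11 fibroblast markers 4 fell with phenylephrine, beside 1.87% of all probe sets. With stretch 0 of these markers passed (4 at an unadjusted p under 0.05, beside 5.54% of all probe sets). Their summed linear signal, in units of 1000, was 43.7 to 44.7 in control, 31.0 to 32.4 with phenylephrine and 36.1 to 37.6 with stretch. Among the smooth muscle and pericyte markers, Cnn1, Acta2 and Tagln are also in the SRF and YAP list. Of 10 such markers 4 rose with phenylephrine and 1 with stretch, beside 1.73% and 0.306% of all probe sets. Their sums were 17.3 to 17.8, 25.4 to 25.9 and 21.0 to 22.4 in the same order and unit. Endothelial sums (9 markers; 2 fell with phenylephrine) were 4.32 to 4.42, 3.58 to 3.64 and 4.05 to 4.14. Macrophage sums (10 markers; 1 fell with phenylephrine) were 10.2 to 10.4, 7.80 to 8.44 and 9.99 to 10.1. These 4 sums placed stretch between control and phenylephrine, as Tubb6 and Tuba4a did, and their part in the tubulin changes was not tested. Ranges of the remaining lists overlapped or stood in another order. Myocyte sums were 202 to 217, 221 to 245 and 196 to 229. Red blood cell sums were 1.48 to 1.54, 1.44 to 1.56 and 1.38. Dividing cell sums were 9.02 to 9.47, 8.9 to 9.96 and 9.35 to 9.87. Schwann cell and neuron sums were 3.21 to 3.3, 3.58 and 3.43 to 3.61. Of 14 dividing cell markers 1 passed, Bub1, higher with stretch than with phenylephrine (0.57 ± 0.09, limma adjusted p = 0.0274). Of all probe sets, 0.718% passed higher in that comparison. In bulk cultures fewer cells of a type and less RNA per cell cannot be told apart. Of 12 Schwann cell and neuron markers 1, the ubiquitin hydrolase gene Uchl1, rose with both stimuli (0.67 ± 0.11 with phenylephrine, limma adjusted p = 0.0175; 0.88 ± 0.11 with stretch, limma adjusted p = 0.0226). Of all probe sets, 1.73% and 0.306% passed upward with phenylephrine and stretch. The medians of these 12 markers were 0.06 and 0.0 log2 in that order. The phenylephrine arrays also stood apart from the other 4 in the 3′ minus 5′ differences that track RNA integrity, but not in the same direction. These differences were lower with phenylephrine for GAPDH and beta-actin and higher for hexokinase. For GAPDH these were 0.25 and 0.30 log2 against 0.36 to 0.59, for beta-actin 1.04 and 0.97 against 1.10 to 1.41, and for hexokinase 1.65 and 1.88 against 1.29 to 1.49. Their part in the tubulin changes was not tested either.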

How the data were processed

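The 6 Affymetrix arrays were hybridized with biotin-labelled cRNA, per the labels' protocols. The deposited values were taken as log2 signals because of their range. The sources used here do not give the authors' probe set summary, background correction or normalization. The small number of arrays limits the precision. The array medians differed by 0.0381 log2, and the values were used as deposited. Of 31099 probe sets, 57 array controls were left out. Genes come from the platform annotation, which can be old and in which 20826 probe sets have 1 symbol, 436 several and 9780 none.

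With limma 3.58.1 (R 4.3.3), lmFit, then eBayes allowing the variance to depend on the mean (trend), estimated the 3 group means from the 6 arrays, with 3 residual and 4.8 prior degrees of freedom. Tests were two-sided, adjusted by Benjamini-Hochberg, at a threshold of 0.05. The fit was run on simulated arrays with independent errors and variances drawn from its own prior. Such a run cannot show how the fit behaves where arrays are correlated. Exact permutation of 2 against 2 arrays gives no p below 0.333 and was not used.

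The brightest probe set represents a gene. All members are described. Of each list, up to 4 genes past the threshold with the largest change are named, or else the gene with the largest change. The 5 genes most like the member with the smallest adjusted p are named. The members and lists were chosen with earlier results of these data known. Alternatives were 2 normalizations, 2 variance models, a filter on dim probe sets, the 2 groups alone, a replicate block, each array left out, and the mean of a gene's probe sets. The same settings were applied to the listed microtubule genes by a choice made after seeing the data.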

Additional observations from a re-analysis of the deposited data

How the results depend on the processing

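With 2 arrays per group, the counts of tubulin probe sets past the threshold moved with the settings, and the directions of the called members held in all of them. For stretch against control, 1 in the report, the count ran from 0 to 1 with 1 array left out. For phenylephrine against control, 3 in the report, it was 5 with quantile normalization and ran from 1 to 3 with 1 array left out. For stretch against phenylephrine, 0 in the report, it was 4 with quantile normalization and 1 without a mean-variance trend. The labels give the arrays of each group the numbers 1 and 2 without saying that equal numbers belong together. Deviations of equally numbered arrays correlated at 0.487 to 0.673 across probe sets. A fit with a replicate block gave 1, 6 and 5 tubulin probe sets in these comparisons, and 1028, 5384 and 3734 of all probe sets in place of 107, 1117 and 413. With phenylephrine Tubb5 (0.447; limma adjusted p = 0.00976) and Tubb2a (0.473; 0.00405) then passed upward and Tuba8 passed downward (-0.282; 0.0127). For stretch against phenylephrine Tubb6 (-0.4; limma adjusted p = 0.00941), Tuba4a (-0.421; 0.0132), Tubb5 (-0.443; 0.0147) and the shared Tuba1 probe set (-0.485; 0.0182) passed downward and Tuba8 upward (0.267; 0.0236).

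Of 318 values of single members under the alternatives, 279 were on the same side of the threshold with the same sign, 18 newly passed, 10 no longer passed and 11 changed sign. Those that changed sign were small and uncalled. For stretch they were Tuba8 (0.008) and Tubb2b (0.037) without stretch replicate 2, and Tubb5 (-0.03 with quantile normalization, -0.081 without control replicate 2, -0.002 without stretch replicate 2, -0.045 with the mean of its probe sets). For phenylephrine they were those of Tubb3 (0.007 with median centring, 0.003 without control replicate 2, 0.015 without phenylephrine replicate 2, 0.043 with the mean of its probe sets). For stretch against phenylephrine it was Tubb2a (0.038 without phenylephrine replicate 1). With 1 array left out these ran from -0.038 to 0.008 for Tuba8, -0.103 to 0.037 for Tubb2b, -0.081 to 0.09 for Tubb5, -0.02 to 0.015 for Tubb3 and -0.456 to 0.038 for Tubb2a. Where an array was left out, the lone array of its group was assumed to vary like the others. Quantile normalization moved the median change of all probe sets by at most 0.0131 log2. Signals near the lower quartile of the arrays, as for Tubb3 and the dim Tubb6 probe set, limit what changes could be seen there.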
